A study of Mus musculus with 16 samples.

Results

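Mammary adipose tissue was examined for 10 genes that mark the stroma and the homing machinery of lymph nodes: the chemokines Ccl21a, Ccl19 and Cxcl13, the chemokine receptors Ccr7 and Cxcr5, the vessel genes Madcam1 and Glycam1, the complement receptor gene Cr2, and the lymphotoxin genes Ltb and Lta. They were taken by symbol from a list, which was chosen with earlier results of these data known. All 10 of the 23179 genes in the table were found, and all 10 passed the filter on low values that left 21218 genes for testing.

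Total RNA was sequenced from the mammary fat pad opposite the tumor in 16 female C57BL/6N mice, 4 libraries per group. All mice began a diet after an arrival age of 8 weeks and 1 week of acclimatization. CON-LFD mice received the low-fat diet (10% of energy from fat) throughout and DIO mice the high-fat diet (60%) for 15 weeks, after which DIO-HFD mice stayed on the high-fat diet, DIO-LFD mice were moved to the low-fat diet, and DIO-VSG mice had a vertical sleeve gastrectomy, which removes part of the stomach, and were moved to the low-fat diet. The groups other than DIO-VSG had a sham operation. All groups also carried cells of E0771, a mouse mammary cancer line, injected into the 4th fat pad 22 weeks after randomization and 4 weeks before collection, and the opposite (9th) fat pad was profiled. Diet and surgery both differ between DIO-VSG and DIO-HFD, so their parts in that comparison cannot be told apart. A mouse fat pad can contain a lymph node, and the methods do not describe its removal.

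In a lymph node, high endothelial venules are the vessels through which lymphocytes leave the blood. Fibroblastic reticular cells and the venules present CCL21 and CCL19, which attract T cells and dendritic cells that carry CCR7, and follicular stroma presents CXCL13, which attracts B cells that carry CXCR5. GlyCAM-1 is a mucin of high endothelial venules, and MAdCAM-1 binds an integrin of lymphocytes. Lymphotoxin made by lymphocytes signals through its receptor on the stroma, through the NF-kB pathway, to keep these chemokines and vessels in place. Glycam1 is also expressed by the lactating mammary gland.

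Ccl21a belongs to a cluster of near-identical genes on chromosome 4, so its sequence is shown beside that of a copy. The coding sequences are 402 bases long in both. Ccl21b (chr4:42255767-42256432, plus strand), Gm10591, Gm13304 and Gm21541 had the same coding sequence, which differed from that of Ccl21a (chr4:42772860-42773993, minus strand) at 2 positions counted from the start codon, T84A and C194T (99.5% identity). Coding bases 64 to 214 are printed from the GENCODE M21 annotation of GRCm38, with the differing bases in capitals.
Ccl21a: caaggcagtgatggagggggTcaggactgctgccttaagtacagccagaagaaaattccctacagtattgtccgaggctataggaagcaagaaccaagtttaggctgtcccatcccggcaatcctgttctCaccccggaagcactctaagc
Ccl21b: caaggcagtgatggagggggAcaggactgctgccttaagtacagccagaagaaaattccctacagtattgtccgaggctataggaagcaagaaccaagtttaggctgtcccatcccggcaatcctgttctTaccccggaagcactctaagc

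The authors' table gave Ccl21b and Gm10591 equal values in 16 of 16 libraries. Ccl21a held between 67.7% and 94.5% of the reads assigned to these 5 genes. That share was lowest in CON-LFD replicate 2, at 67.7%, and was 73.8% in DIO-HFD replicate 3. How the authors' counting divided reads between the copies was not tested, so the level of Ccl21a is uncertain to that extent.

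The promoters of 8 of the 10 genes were matched in RefSeq (GRCm38.p6). They were searched, over the 250 bases before the start and on both strands, for a kappa-B-like motif (GGGA and CC with any 4 bases between them), because lymphotoxin receptor signaling ends in NF-kB. The motif was present in 5 of the 8 (Ccl19, Cxcl13, Madcam1, Cr2 and Ltb), and in 17.3% of 27025 mouse promoters. The letters TATAAA were present in 2 of the 8 (Cxcl13 and Lta) and in 13% of all promoters. A match describes the letters only. The promoters of Madcam1 (chr10:79664309-79664558, plus strand), Cxcl13 (chr5:95956689-95956938, plus strand) and Cr2 (chr1:195176720-195176969, minus strand) are shown as examples from vessel, follicular stroma and B cell genes, 5′ to 3′, with both motifs in capitals.
Madcam1: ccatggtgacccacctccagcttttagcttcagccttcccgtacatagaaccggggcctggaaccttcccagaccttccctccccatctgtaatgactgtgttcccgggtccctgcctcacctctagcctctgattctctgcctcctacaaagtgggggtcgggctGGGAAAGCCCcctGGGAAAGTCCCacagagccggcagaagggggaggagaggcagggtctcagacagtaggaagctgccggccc
Cxcl13: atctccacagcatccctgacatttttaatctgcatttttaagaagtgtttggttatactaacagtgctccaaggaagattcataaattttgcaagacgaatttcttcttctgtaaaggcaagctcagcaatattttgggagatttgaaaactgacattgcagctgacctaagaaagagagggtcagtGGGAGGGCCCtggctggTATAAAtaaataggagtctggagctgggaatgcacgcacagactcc
Cr2: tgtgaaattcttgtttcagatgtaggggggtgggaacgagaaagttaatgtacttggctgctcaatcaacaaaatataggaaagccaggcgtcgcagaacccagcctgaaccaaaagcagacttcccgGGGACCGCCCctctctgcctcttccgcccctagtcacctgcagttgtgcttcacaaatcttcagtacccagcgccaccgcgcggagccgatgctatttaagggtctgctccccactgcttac

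Madcam1 held GGGAAAGCCC from 84 to 75 bases before its start and GGGAAAGTCC from 71 to 62 bases before it, the latter overlapping GGAAAGTCCC, a match of the opposite strand. Ccl19 held GGGAAGACCC and Ltb held GGAAAGTCCC, the same letters as in Madcam1.

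The same 4 libraries stood apart for every one of the 10 genes. CON-LFD replicates 2 and 4 and DIO-HFD replicates 2 and 3 were the 4 lowest of the 16 for all 10 genes. DIO-HFD replicate 1 was among the 4 highest for all 10, and CON-LFD replicate 3 for 6 of them. CON-LFD and DIO-HFD therefore each contained mice at both ends of the range, whereas the ranges were narrower in DIO-LFD and DIO-VSG. The libraries held between 46907377 and 57610899 reads, and adipocyte markers were detected in each, with sums over 12 genes between 534858 and 1873100 normalized counts. The adipocyte sum was lowest in DIO-HFD replicate 1. The mean log2 value of the adipocyte markers was 15.97 to 16.29 in the 4 libraries that were lowest for the 10 genes, against 15.24 to 15.68 in DIO-VSG and 14.54 in DIO-HFD replicate 1. DIO-LFD overlapped those 4 libraries, at 15.64 to 16.27 with replicate 1 highest. The values were 15.92 and 15.46 in CON-LFD replicates 1 and 3 and 15.54 in DIO-HFD replicate 4. The part of the adipocyte content in the levels of the 10 genes was not tested.

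**Figure D1:**
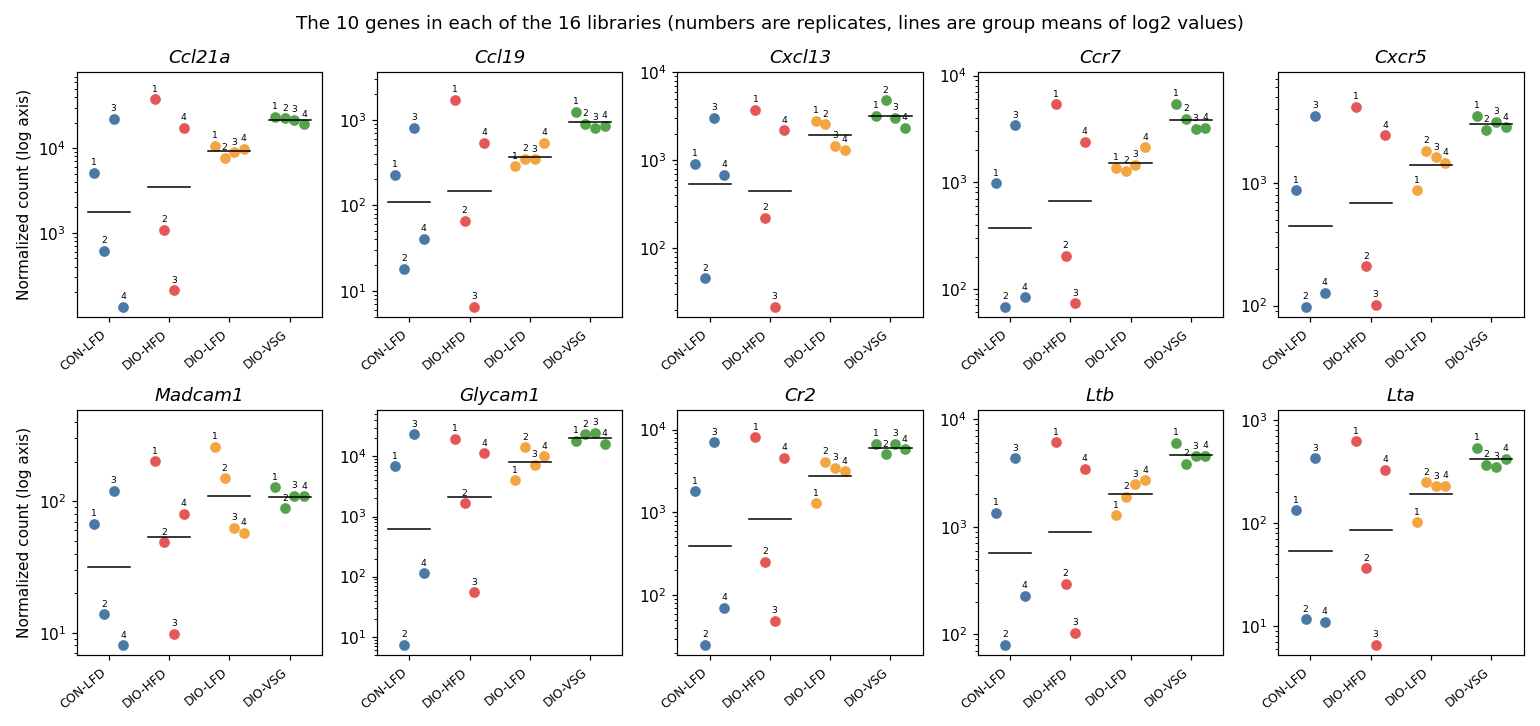
Normalized counts (reads divided by the size factor of the library, log axis) of the 10 genes in the 4 groups; each point is 1 library, numbers give the replicate and lines the group mean of the log2 values. The points of CON-LFD and DIO-HFD extend over more than those of DIO-LFD and DIO-VSG in every panel, and replicates 2 and 4 of CON-LFD and 2 and 3 of DIO-HFD are lowest.

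Ccl21a, the chemokine of T cell zones and venules, was at 5121, 615, 22201 and 135 normalized counts in CON-LFD replicates 1 to 4 and at 37665, 1093, 210 and 17287 in DIO-HFD. It was at 10716, 7671, 8917 and 9785 in DIO-LFD and at 23488, 22517, 21570 and 19185 in DIO-VSG. All DIO-VSG libraries were above all DIO-LFD libraries, and both lay inside the range of DIO-HFD.

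Ccl19, the other ligand of CCR7 (chr4:42754525-42756577, minus strand), was at 226, 18.02, 808 and 40.2 in CON-LFD and at 1715, 65.3, 6.55 and 538 in DIO-HFD. The values were 284, 349, 344 and 535 in DIO-LFD and 1243, 898, 805 and 843 in DIO-VSG. Per kilobase of its longest coding transcript, Ccl19 averaged 1225 ± 260 (SD, n = 4) normalized counts in DIO-VSG against 24931 ± 2120 for Ccl21a, so the level of Ccl21a was the higher of these 2 ligands. Within libraries, the ratio of Ccl21a to Ccl19 counts was 18.9 to 26.8 in DIO-VSG and fell outside 16.7 to 37.8 only in CON-LFD replicate 4, at 3.35.

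Cxcl13, the chemokine of B cell follicles (chr5:95956951-95961068, plus strand), was at 910, 45.6, 3031 and 690 in CON-LFD and at 3780, 222, 21.8 and 2184 in DIO-HFD. It was at 2822, 2565, 1473 and 1307 in DIO-LFD and at 3179, 4829, 3046 and 2326 in DIO-VSG. The ranges of DIO-LFD and DIO-VSG overlapped.

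Ccr7, the receptor of naive and central memory T cells and migrating dendritic cells (chr11:99144196-99155077, minus strand), was at 977, 67.8, 3420 and 83.4 in CON-LFD, at 5384, 203, 73.1 and 2375 in DIO-HFD, at 1365, 1269, 1464 and 2126 in DIO-LFD and at 5435, 3908, 3148 and 3220 in DIO-VSG. Cxcr5, the receptor of B cells and follicular helper T cells (chr9:44511787-44561877, minus strand), was at 869, 97.5, 3505 and 128 in CON-LFD, at 4143, 209, 102 and 2429 in DIO-HFD, at 869, 1823, 1611 and 1446 in DIO-LFD and at 3508, 2705, 3115 and 2830 in DIO-VSG. For both receptors, the highest DIO-LFD library was below the lowest DIO-VSG library.

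The vessel genes differed from each other. Glycam1, the gene of the venule mucin (chr15:103562759-103565081, minus strand), had the widest range of the 10. It was at 6880, 7.42, 23463 and 114 in CON-LFD and at 19613, 1650, 54.6 and 11298 in DIO-HFD. It was at 3990, 14117, 7216 and 10108 in DIO-LFD and at 18379, 23192, 24584 and 16212 in DIO-VSG. In CON-LFD the highest library was 3162 times the lowest, which held 7 reads. With the milk list, 10 of 12 genes were in the table. Its summed level was 20175 to 28253 normalized counts in CON-LFD, 15738 to 25237 in DIO-HFD, 19191 to 29742 in DIO-LFD and 12144 to 22706 in DIO-VSG, where Glycam1 was high. Of its caseins, Csn1s1 had 0 reads in every DIO-VSG library and at most 43.5 normalized counts elsewhere, while Csn3 was at 661 to 4204 in CON-LFD, 513 to 1386 in DIO-HFD, 992 to 3856 in DIO-LFD and 1314 to 1714 in DIO-VSG. The part of milk gene expression in the level of Glycam1 was not tested.

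Madcam1, the addressin (chr10:79664559-79668537, plus strand), was low throughout. Its counts were 67.3, 13.8, 120 and 8.04 in CON-LFD, 201, 48.7, 9.82 and 80.3 in DIO-HFD, 259, 149, 62.9 and 57.2 in DIO-LFD, and 128, 88.1, 110 and 109 in DIO-VSG. Here the highest library of all 16 was DIO-LFD replicate 1, and the means of DIO-LFD (132 ± 94.4, n = 4) and DIO-VSG (109 ± 16.1) differed by less than the spread in DIO-LFD. DIO-LFD replicate 1 also had the highest summed level of the 10 blood endothelium markers, 111844 normalized counts, against 52022 to 98225 in the other 15 libraries; the part of these vessel markers in its Madcam1 level was not tested.

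Cr2, which encodes complement receptor 2 of B cells and follicular dendritic cells (chr1:195136811-195176716, minus strand), was at 1802, 25.4, 7001 and 70.3 in CON-LFD and at 8032, 252, 49.1 and 4554 in DIO-HFD. It was at 1284, 4107, 3474 and 3131 in DIO-LFD and at 6675, 5049, 6740 and 5748 in DIO-VSG. DIO-LFD replicate 1, highest for Madcam1, was lowest of its group for Cr2.

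Ltb, which encodes lymphotoxin beta (chr17:35194439-35196320, plus strand), was at 1342, 79.5, 4340 and 228 in CON-LFD, at 6108, 293, 103 and 3449 in DIO-HFD, at 1272, 1901, 2486 and 2703 in DIO-LFD and at 6007, 3832, 4504 and 4546 in DIO-VSG. Lta, the neighboring gene for lymphotoxin alpha (chr17:35203165-35205351, minus strand), was at 134, 11.7, 426 and 11.1 in CON-LFD, at 625, 36.5, 6.55 and 331 in DIO-HFD, at 102, 249, 228 and 231 in DIO-LFD and at 544, 370, 352 and 424 in DIO-VSG. Per kilobase, Ltb averaged 4071 ± 790 normalized counts in DIO-VSG and Lta 305 ± 62.5.

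The group means of log2 values ran in the order CON-LFD, DIO-HFD, DIO-LFD, DIO-VSG for 8 of the 10 genes. The exceptions were Cxcl13, with 8.82 in DIO-HFD below 9.09 in CON-LFD, and Madcam1, with 6.76 in DIO-VSG just under 6.78 in DIO-LFD. On plain means of normalized counts the order was different, with DIO-HFD above DIO-LFD for 7 of the 10, and with Cxcl13 at 1552 ± 1777 in DIO-HFD and 1169 ± 1294 in CON-LFD. Neighbors in the log2 order were not separated beyond their spread, other than DIO-LFD and DIO-VSG, whose ranges did not overlap for 8 of the 10 (12.9% of all genes had DIO-VSG above DIO-LFD in this way).

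The spread inside each group was itself unequal. The SD of log2(normalized count + 1) over 4 libraries had a median over the 10 genes of 2.57 in CON-LFD and 3.15 in DIO-HFD, against 0.52 in DIO-LFD and 0.27 in DIO-VSG. Over all genes tested, the median SD was 0.35, 0.38, 0.26 and 0.21 in these groups. Each of the 10 was at or above the 95.2th percentile of all genes for spread in CON-LFD and the 94.3th in DIO-HFD, while the percentiles ran from 40.4 for Ccl21a to 93.5 for Madcam1 in DIO-LFD (median 76.3) and from 29.1 for Ccl21a to 77.9 for Cxcl13 in DIO-VSG (median 60.6). Ccl21a had the smallest SD of the 10 in DIO-LFD (0.21) and in DIO-VSG (0.13).

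**Figure D2:**
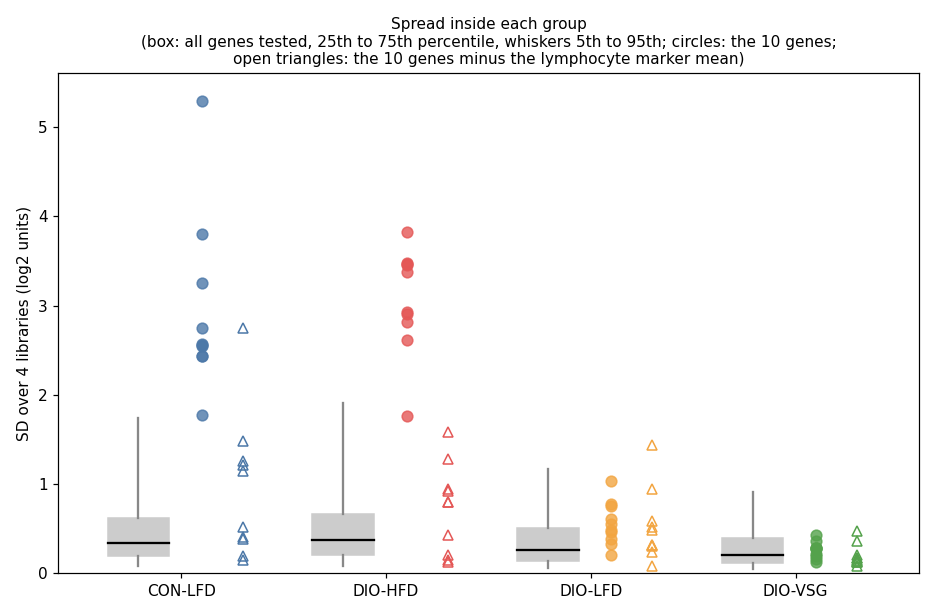
SD of log2(normalized count + 1) over the 4 libraries of each group; boxes cover the 25th to 75th percentile and whiskers the 5th to 95th of the 21218 genes tested, circles are the 10 genes and open triangles the same genes after subtracting the mean of 36 lymphocyte markers in each library. The circles reach 5.29 in CON-LFD and reach 0.44 in DIO-VSG.

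Obesity was addressed by setting DIO-HFD against CON-LFD. The members' log2 differences had a median of 0.72 (0.02 over all genes), with 9 of 10 higher in DIO-HFD. Ccl21a differed by 1.00 (SE 1.55, adjusted p = 0.83, limma-trend) and Cxcl13 by -0.27 (SE 1.39). None of the 10 passed an adjusted p of 0.05, where 0.0377% of genes tested did, and 0 of 10 reached an unadjusted p of 0.05, where 5.23% of genes did so in this direction. The ranges overlapped for all 10, where 1.76% of genes had DIO-HFD above CON-LFD in every library. The median was -0.21 without DIO-HFD replicate 1, -0.16 without CON-LFD replicate 2 and 1.86 without DIO-HFD replicate 3. With library weights it was 1.92, with 10 of 10 higher in DIO-HFD, and 7 reached an unadjusted p of 0.05, where 18.7% of genes did in this direction. The weight was 10.9 for DIO-HFD replicate 4 and 0.48, 0.46 and 0.22 for DIO-HFD replicates 1 to 3. The weighted DIO-HFD mean therefore rests mostly on 1 library.

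Surgery together with its diet was addressed by setting DIO-VSG against DIO-HFD. All 10 genes were higher in DIO-VSG, with a median log2 difference of 2.58 against 0.02 over all genes, and 0 of 10 passed the adjusted threshold, as did 0% of genes. By limma-trend 0 reached an unadjusted p of 0.05, where 5.05% of genes did in this direction; limma-voom gave 3, and 5.61% of genes. Ccl21a averaged 21690 ± 1845 normalized counts in DIO-VSG and 14064 ± 17584 in DIO-HFD (log2 difference 2.63, SE 1.55, 95% confidence interval -0.70 to 5.95). The difference was largest for Glycam1, at 3.26 (SE 2.14), and smallest for Madcam1, at 1.00 (SE 0.89). The ranges overlapped for all 10 genes, where 2.37% of genes had DIO-VSG above DIO-HFD. Without DIO-HFD replicate 1, DIO-VSG was above DIO-HFD for 10 of 10, where 13.4% of genes were, the median was 3.65 and 8 reached an unadjusted p of 0.05, where 14.3% of genes did. Without DIO-HFD replicate 4 that number was 5, where 6.76% of genes did, and without DIO-HFD replicate 3 the median was 1.31. With library weights, under which the DIO-HFD mean rests mostly on replicate 4, the median was 0.66, with 10 of 10 higher.

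The change of diet alone was addressed by setting DIO-LFD against DIO-HFD. The direction depended on the scale. On the log2 scale all 10 were higher in DIO-LFD, with a median difference of 1.27 against 0.01 over all genes, whereas plain means of normalized counts were lower in DIO-LFD for 7 of 10 (all but Cxcl13, Madcam1 and Glycam1), as for Ccl21a with 9272 ± 1296 in DIO-LFD and 14064 ± 17584 in DIO-HFD. In the log2 fit 0 of 10 passed the adjusted threshold, as did 0% of genes. At an unadjusted p of 0.05 there were also 0, where 5.37% of genes were higher, and 0 were separated by range, where 3.01% of genes were. Cxcl13 had the largest difference, 2.09 (SE 1.39, adjusted p = 0.77, limma-trend). The median was 0.14 without DIO-HFD replicate 3 and 2.36 without DIO-HFD replicate 1. Weighting libraries by their agreement with the fit gave a median of -0.36, in the opposite direction, with the DIO-HFD mean resting mostly on replicate 4.

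DIO-VSG and DIO-LFD mice, both on the low-fat diet at the end, differed by surgery. DIO-VSG was above DIO-LFD in all libraries for 8 of the 10 genes (Ccl21a, Ccl19, Ccr7, Cxcr5, Glycam1, Cr2, Ltb and Lta), where 12.9% of genes tested were separated in this direction. Any gene separated in this way, and so each of the 8, has an exact two-sided permutation p of 0.0286, unadjusted. That p is the smallest that 4 against 4 libraries allow and restates the separation. Ccl21a averaged 21690 ± 1845 in DIO-VSG and 9272 ± 1296 in DIO-LFD, a log2 difference of 1.23. The median difference of the 10 was 1.17, against -0.02 over all genes. In the limma-trend fit of all 16 libraries, which assigns the wide spread of CON-LFD and DIO-HFD to every group, 0 of 10 passed the adjusted threshold, as did 0% of genes, and 0 reached an unadjusted p of 0.05 (4.3% of genes did in this direction).

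A fit of these 8 libraries alone called 5 of the 10, all higher in DIO-VSG, where 7.22% of genes were called in either direction. These were Ccl21a (log2 difference 1.23, SE 0.12, adjusted p = 0.013), Ccl19 (1.34, SE 0.21, adjusted p = 0.016), Ccr7 (1.33, SE 0.21, adjusted p = 0.016), Cxcr5 (1.13, SE 0.22, adjusted p = 0.024) and Ltb (1.21, SE 0.24, adjusted p = 0.026). The summed T and B cell markers were also separated between these groups, at 48824 to 78828 and 149828 to 202321 normalized counts in DIO-VSG and 15270 to 32395 and 50933 to 96307 in DIO-LFD. With the mean of these markers as a covariate in the fit of 16 libraries, all 5 differences were below 0, none beyond its SE. These were Ccl21a -0.30 (SE 0.57), Ccl19 -0.076 (SE 0.34), Ccr7 -0.036 (SE 0.20), Cxcr5 -0.096 (SE 0.17) and Ltb -0.099 (SE 0.099). The marker mean was 11.79 to 12.22 in DIO-VSG and 10.07 to 11.01 in DIO-LFD, so group and lymphocyte content cannot be told apart here. In the fit of 8 libraries, Glycam1 (1.34, SE 0.35), Cr2 (1.13, SE 0.33) and Lta (1.12, SE 0.29) had adjusted p of 0.059, 0.079 and 0.059. Cxcl13 differed by 0.74 (SE 0.30, adjusted p = 0.17) and Madcam1 by -0.01 (SE 0.46). The direction for Madcam1 turned when libraries were scaled by their totals (0.04).

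DIO-VSG was also set against the lean controls. All 10 were higher in DIO-VSG than in CON-LFD, with a median log2 difference of 3.06 against -0.02 over all genes. By limma-trend, 8 of 10 reached an unadjusted p of 0.05 (all but Cxcl13 and Madcam1), where 10.2% of genes did in this direction. By exact two-sided permutation none did, with unadjusted p from 0.0571 (Ccl19, Cxcl13 and Ltb) to 0.143 (Cr2). T and B cell markers were higher in DIO-VSG for 18 of 18 and 18 of 18 genes, with median differences of 2.76 and 3.70, and with the mean of these markers as a covariate 0 of 10 reached an unadjusted p of 0.05, where 2.19% of genes did. Without the covariate, none of the 10 passed the adjusted threshold, as 0% of genes did. Glycam1 differed by 5.01 (SE 2.14, adjusted p = 0.27, limma-trend), Cr2 by 3.94 (SE 1.69), Ccl21a by 3.62 (SE 1.55) and Madcam1 by 1.74 (SE 0.89). The number at an unadjusted p of 0.05 was 0 without CON-LFD replicate 2 or 4, where 4.39% and 4.2% of genes reached it, and 1 without DIO-VSG replicate 1, where 4.93% did. It was 2 without DIO-VSG replicate 2, 3 or 4, where 6.65%, 7.29% and 8.22% did. The ranges overlapped for all 10 (2.59% of genes were separated). Without CON-LFD replicate 3, 10 of 10 were separated, where 19.9% of genes were, and the median was 4.03; without CON-LFD replicate 2 it was 2.24. With library weights, 5 of 10 passed the adjusted threshold, and so did 19.9% of all genes.

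Relative to CON-LFD, DIO-LFD was higher for 10 of 10, with a median log2 difference of 1.82 (0.02 over all genes). None passed the adjusted threshold, where 0.00471% of genes did, and 0 reached an unadjusted p of 0.05, where 3.23% of genes did. The ranges overlapped for all 10, where 1.73% of genes were separated. Glycam1 differed by 3.67 (SE 2.14, adjusted p = 0.86, limma-trend). Without CON-LFD replicate 3, 8 reached an unadjusted p of 0.05, where 7.6% of genes did, and 5 were separated from CON-LFD, where 9.18% of genes were. The median was 2.80 without CON-LFD replicate 3 and 1.17 without CON-LFD replicate 2. These comparisons share groups and are therefore not independent of each other.

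**Figure D3:**
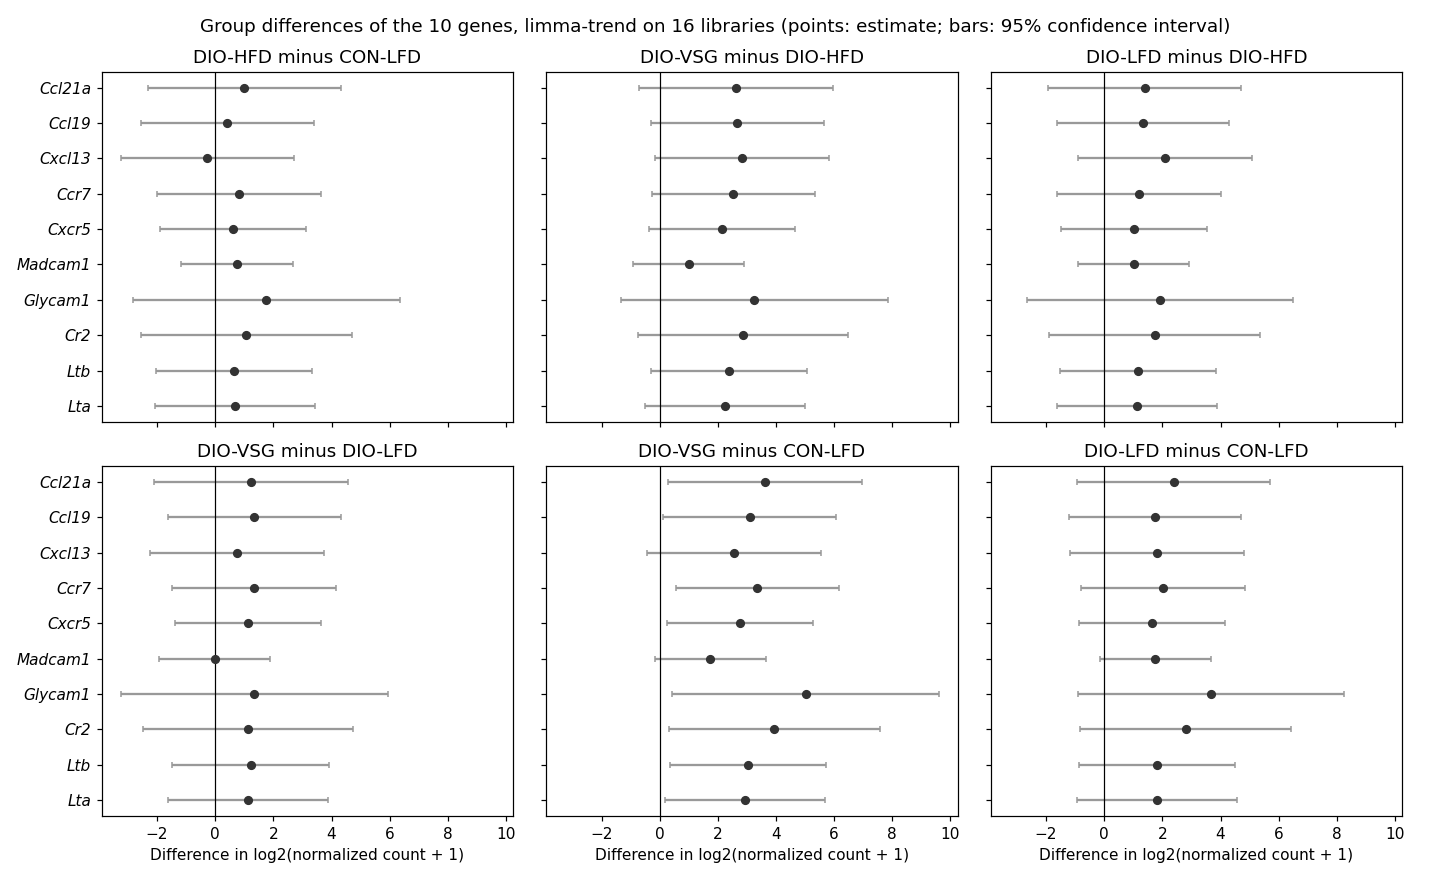
Differences in log2(normalized count + 1) between groups for the 10 genes, first group minus second, from limma-trend on 16 libraries; points are estimates, bars 95% confidence intervals, and the vertical line marks no difference. Intervals lie above 0 for 8 genes in DIO-VSG minus CON-LFD and include 0 in the other panels.

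Markers of lymphocytes varied between the same libraries. All 18 T cell and all 18 B cell markers were in the table, and their summed levels ran from 2381 to 56147 and from 2050 to 202491 normalized counts in CON-LFD, from 2248 to 83975 and from 11448 to 292704 in DIO-HFD, from 15270 to 32395 and from 50933 to 96307 in DIO-LFD, and from 48824 to 78828 and from 149828 to 202321 in DIO-VSG. In bulk tissue, fewer cells of a type and less RNA per cell cannot be told apart. When the mean log2 value of the 36 markers in a library was subtracted, the SD inside CON-LFD was smaller for 10 of 10 genes, to a median of 0.83, and likewise inside DIO-HFD, to 0.80. Inside DIO-VSG, as inside DIO-LFD, it was smaller for 7 of 10. With this mean as a covariate, the median difference of the 10 genes was 0.04 for DIO-VSG minus DIO-HFD, -0.25 for DIO-VSG minus DIO-LFD, -0.02 for DIO-VSG minus CON-LFD, -0.05 for DIO-HFD minus CON-LFD, 0.32 for DIO-LFD minus DIO-HFD and 0.18 for DIO-LFD minus CON-LFD.

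The SD around the lymphocyte mean differed between the genes. For Ltb it was 0.15 in CON-LFD, 0.13 in DIO-HFD, 0.08 in DIO-LFD and 0.13 in DIO-VSG, the smallest of the 10 in each group other than DIO-VSG, where those of Cxcr5 (0.08) and Ccl19 (0.127) were smaller. In CON-LFD it was 0.20 for Ccl19, 0.39 for Cxcr5, 0.41 for Ccr7 and 0.52 for Lta, and 1.14 for Madcam1, 1.21 for Cr2, 1.26 for Cxcl13, 1.49 for Ccl21a and 2.75 for Glycam1. In DIO-HFD it was 0.15 for Cxcr5, 0.21 for Ccr7 and 0.43 for Lta, and between 0.80 (Cr2 and Ccl21a) and 1.59 (Glycam1) for the others besides Ltb. In DIO-VSG the order was different, with 0.14 for Ccl21a, 0.15 for Madcam1 and 0.21 for Ccr7.

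**Figure D4:**
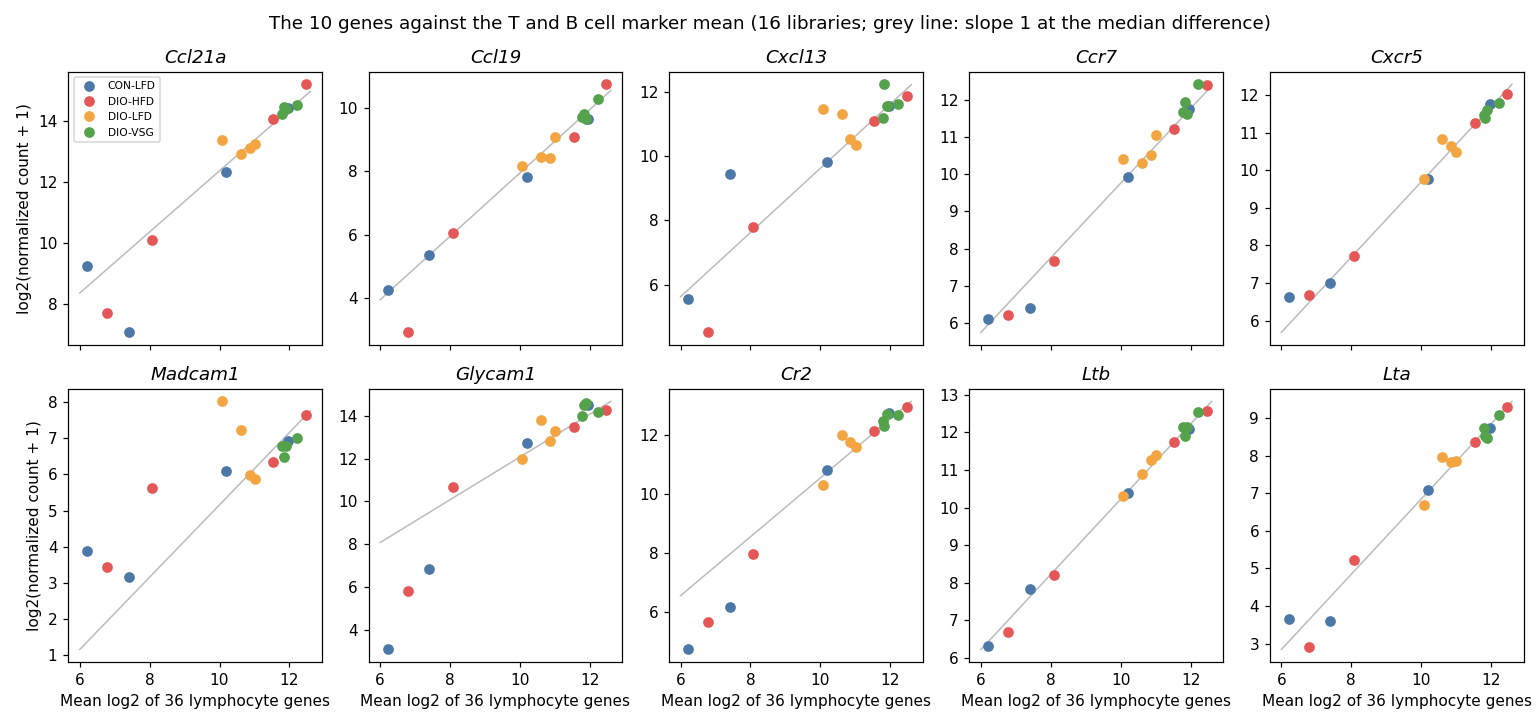
log2(normalized count + 1) of each gene against the mean log2 value of 36 T and B cell markers in the same library, 16 libraries colored by group; the grey line has slope 1 at the median difference. Ltb, Cxcr5 and Ccr7 lie along the line, Glycam1 and Cr2 lie under it in the 3 libraries with the lowest lymphocyte mean, and Madcam1 lies farthest above it in DIO-LFD replicate 1, CON-LFD replicate 2 and DIO-HFD replicate 2.

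Ratios between genes of the same library showed where single libraries departed. Glycam1 and Ccl21a counts were close to equal in DIO-VSG, with ratios of 0.78 to 1.14, but in CON-LFD replicate 2 the ratio was 0.012, from 7 reads of Glycam1 and 580 of Ccl21a. The ratio of the chemokine Cxcl13 to its receptor Cxcr5 was 0.82 to 1.78 in DIO-VSG, 5.41 in CON-LFD replicate 4, 3.25 in DIO-LFD replicate 1 and 0.22 in DIO-HFD replicate 3. CON-LFD replicate 4, with 690 normalized counts of Cxcl13 and 128 of Cxcr5, also had the highest summed macrophage markers, 150548 against 22016 to 81581 in the other 15 libraries; their part in that ratio was not tested.

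Cr2 to Cxcr5 was 1.87 to 2.16 in DIO-VSG and 0.26 in CON-LFD replicate 2. Madcam1 to Cr2 was 0.016 to 0.019 in DIO-VSG and 0.54 in CON-LFD replicate 2. Ltb to Lta was 10.4 to 12.8 in DIO-VSG and 6.82 to 20.6 over all 16 libraries, over which its log2 SD (0.38) was the smallest of the 8 ratios examined. Inside DIO-VSG, the log2 SDs of Cr2 to Cxcr5 (0.10) and Madcam1 to Cr2 (0.11) were smaller than that of Ltb to Lta (0.13). These ratios are of counts and are not adjusted for transcript length.

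**Figure D5:**
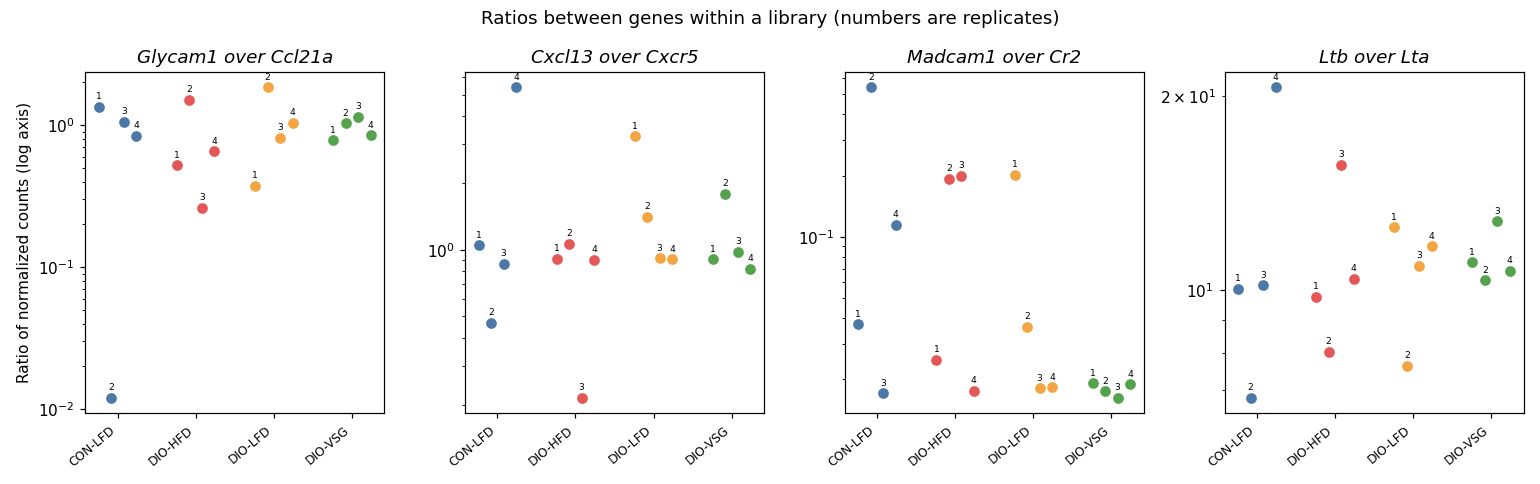
Ratios of normalized counts of 4 gene pairs within each library (log axis), by group; points are libraries and numbers replicates. DIO-VSG points lie close together in each panel, CON-LFD replicate 2 is apart for Glycam1 over Ccl21a at 0.012 and CON-LFD replicate 4 for Cxcl13 over Cxcr5 at 5.41.

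The genes with the most similar profiles were found by the root mean square difference of centred log2 values over the 16 libraries, among 15595 named genes. Among those nearest to Cr2 were the B cell genes Ms4a1 and Cd79a (0.18 and 0.19 log2 units, while Cr2 itself deviated by 2.72). Nearest to Ccr7 were Slamf6, Zfp831 and the T cell receptor subunit gene Cd3d (0.18 to 0.22). Cxcr5 was nearest to Ptprcap, Lax1 and Rltpr (0.18 to 0.20), Ltb to Il21r, Ptprcap and Cd96 (0.15 to 0.21), Lta to H2-Oa, Kynu and Lax1 (0.17 to 0.25) and Ccl19 to Kynu, Izumo1r and Cd96 (0.32 to 0.33). Ccl21a was nearest to Oit1, Tspan10 and Trbv12-1 (0.41 to 0.49), Glycam1 to Pcdh15, Iglv3 and Fcmr (0.55 to 0.82), Cxcl13 to Il5ra, Slc6a20a and Il12a (0.63 to 0.67) and Madcam1 to Hamp, Igkv4-92 and Pydc4 (0.64 to 0.65). The genes themselves deviated by 2.20 for Ccl19, 2.48 for Ccl21a, 3.42 for Glycam1, 2.21 for Cxcl13 and 1.39 for Madcam1, and by 1.88 to 2.16 for Ccr7, Cxcr5, Ltb and Lta. Several of these neighbors were near the lower limit of counting, such as Hamp (0 to 31.1 normalized counts), Igkv4-92 (0 to 19.4) and Trbv12-1 (0 to 109). All these libraries share the lymphocyte variation described above.

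Other genes of the pathway were examined as lists, and 0 genes of these lists passed the adjusted threshold in any of the 6 comparisons. In the lymphotoxin receptor pathway, the median difference of 14 genes was 0.29 for DIO-VSG minus DIO-HFD and 0.42 for DIO-VSG minus DIO-LFD, with 0 higher and 2 lower at an unadjusted p of 0.05 in the latter, where 4.3% of all genes were higher and 5.41% lower. The lower ones were Ltbr, the lymphotoxin beta receptor (-0.48, SE 0.21), and Tnfrsf1a, a TNF receptor (-0.48, SE 0.19). Ltbr was at 2480 ± 276 normalized counts in DIO-VSG and 3446 ± 53.5 in DIO-LFD (n = 4). Relative to CON-LFD, 9 of 14 were higher in DIO-VSG at an unadjusted p of 0.05, where 10.2% of all genes were. Birc3 (1.13, SE 0.52) was among the 9. In this comparison 15 of 18 T cell and 16 of 18 B cell markers were also higher at that threshold. The part of lymphocytes in the 9 was not tested. Relative to DIO-HFD, Birc3 differed by 0.98 (SE 0.52) and Tnfrsf1a by -0.37 (SE 0.19).

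Of 14 lymphocyte homing genes, 13 were higher in DIO-VSG than in DIO-HFD, with a median of 0.91. Cxcr4, a chemokine receptor, was at 5108 ± 1790 in DIO-VSG and 2229 ± 1798 in DIO-HFD (1.51, SE 0.68, adjusted p = 0.37, limma-trend), and Itgb1, an integrin subunit gene of many cell types, differed by -0.64 (SE 0.20).

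Of 14 high endothelial venule genes, 8 were higher and 6 lower in DIO-VSG than in DIO-HFD, with a median of 0.23. St3gal6, a sialyltransferase gene, differed by 0.81 (SE 0.35) and Cd34 by -0.85 (SE 0.39), with adjusted p of 0.36 and 0.38 (limma-trend). Both had an unadjusted p below 0.05, where 5.05% of all genes were higher and 8.12% lower. Chst4, which encodes a sulfotransferase of high endothelial venules, was at 186 to 421 normalized counts in DIO-VSG, 83.9 to 152 in DIO-LFD and 0 to 396 in DIO-HFD. The summed level of this list was between 38909 and 47389 in all 16 libraries. Its mean log2 value, which weights genes equally, ran from 9.42 to 10.65 and was lowest in CON-LFD replicate 2 (9.42), DIO-HFD replicate 3 (9.52), CON-LFD replicate 4 (9.68) and DIO-HFD replicate 2 (9.97), the 4 libraries that were lowest for the 10 genes.

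Of 17 reticular and follicular stroma genes, 10 were higher and 7 lower in DIO-VSG than in DIO-HFD (median 0.40). Sulf1 (-0.81, SE 0.20) and Mfge8, a gene also used by macrophages (-0.75, SE 0.20), were among 3 of the 17 lower at an unadjusted p of 0.05, as were 8.12% of all genes. Of 12 lymphatic endothelium genes, 6 were higher and 6 lower (median 0.04), Vegfc by -1.07 (SE 0.26) and Flt4 by -0.51 (SE 0.27). Of the genes in this list, Prox1 and Lyve1 were detected in every library, Prox1 at 350 to 572 normalized counts in DIO-VSG and 60.0 to 895 in DIO-HFD. Of the Ccl21 copies and Ccl19-ps1, 5 of 5 were higher in DIO-VSG than in DIO-HFD, Ccl21b by 2.57 (SE 1.28) and Ccl19-ps1 by 2.39 (SE 1.15).

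Marker lists of other cells had medians of both signs between DIO-VSG and DIO-HFD. The median differences were 2.57 for B cells (Vpreb3 2.496, SE 1.27; Cd79b 2.62, SE 1.43), 2.19 for T cells (Cd3g 2.34, SE 1.17; Lat 2.27, SE 1.14) and 0.54 for dendritic cells (Flt3 1.88, SE 0.99; Ccl22 1.99, SE 1.19). They were -0.62 for macrophages (Trem2 -1.67, SE 0.58; Cd163 -1.23, SE 0.61), -0.58 for blood endothelium (Erg -0.60, SE 0.19; Cdh5 -0.78, SE 0.29), 0.02 for adipocytes (Lep -1.81, SE 0.61; Slc2a4 0.53, SE 0.28), 0.27 for mammary epithelium (Acta2 -1.08, SE 0.29; Prlr 1.25, SE 0.36) and 0.17 for milk genes (Xdh -0.53, SE 0.26). The median of the 10 genes, 2.58, was close to that of the B cell list. The part of these cell types in the differences of the 10 genes was not tested beyond the covariate above.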

How the data were processed

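RNA-Seq was analysed in 16 libraries, 4 per group, which carry separate animal numbers in the labels. The study's methods name STAR, GRCm38, salmon with a Gencode annotation of unstated release, and removal of genes with fewer than 10 counts in all; the submitters' processing notes name TopHat2 2.0.7 and HTSeq 0.5.3p9, and which made the table was not settled. The deposited values are on a log2 scale: the authors' variance-stabilized DESeq2 values, with a floor of 5.36, although described as normalized counts. The transformation was inverted to normalized counts and to whole reads, which 100.0% of values matched within 0.01. Library totals were 46907377 to 57610899, so counting error was small beside the spread between mice, except for values of a few reads.

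For differences between groups, log2(normalized count + 1) was fitted by limma-trend in limma 3.58.1 under R 4.3.3, a scale that understates the change of low genes, in 1 fit of 16 libraries. The filter required 10 or more normalized counts in 4 or more libraries. Tests were two-sided, with Benjamini-Hochberg adjustment in each of 6 comparisons and an adjusted p of 0.05 as threshold. Single genes were also compared by exact permutation tests. For the lymphocyte score, the log2 values of 18 T cell and 18 B cell markers were averaged. Scripts were tested on simulated counts with the same dispersion in all genes and groups, unlike the unequal spread between the groups here.

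The members and lists were chosen with earlier results of these data known. Named genes were the 10 members, the 3 nearest genes to each and, from each list, the 2 with the smallest p between DIO-VSG and DIO-HFD. Ltbr, Chst4, Prox1 and Lyve1 were added after their values were seen, and Csn3 was also named outside this rule. A gene that the rule names is not reported here. Positions came from GENCODE M21 on GRCm38. Ccl21c, Ccl21d, Ccl21e, Ccl21f, Gm1987 and Ccl19-ps2 were not analysed here. Alternatives were other pseudocounts, filters, scalings, voom on the recovered reads, library weights, separate fits of 2 groups, a replicate block, the lymphocyte score as a covariate and leaving out each library.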

Additional observations from a re-analysis of the deposited data

Results flagged for a closer look

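Among 72 groups of 4 libraries examined for the 10 genes and 8 ratios between them, 4 held 1 library far from the other 3, where about 1 in 20 would do so by chance. The measure is the gap to the nearest library as a share of the range. Lta was lowest in DIO-LFD replicate 1, at 6.68 on the log2 scale against 7.84 to 7.97 in the others (gap 0.9). The log2 ratio of Cxcl13 to Cxcr5 in DIO-HFD replicate 3 was -2.22, against -0.15 to 0.09 (gap 0.895). The log2 ratio of Glycam1 to Ccl21a in CON-LFD replicate 2 was -6.37, against -0.25 to 0.43 (gap 0.901), with Glycam1 at 7 reads. The log2 ratio of Cr2 to Cxcr5 in DIO-LFD replicate 1 was 0.56, against 1.11 to 1.17 (gap 0.896).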

How the results depend on the processing

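The median difference of the 10 genes kept its direction in each comparison under other pseudocounts, filters, scalings, voom and the deposited log2 values. Scaling by library totals moved the median of all genes between DIO-HFD and CON-LFD to 0.16, and gave Madcam1 0.036 between DIO-VSG and DIO-LFD. Differences of single genes had the same direction and side of the threshold in 1608 cases, were reversed in 62 and passed it only under the alternative in 10. Many of these cases could not change direction. Leaving out a library of neither group compared, another filter or a fit of 2 groups alone leaves a difference as it was. The cause of the reversals was not tested.

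No gene of the 10 was called with any library left out. Leaving out 1 library at a time gave, between DIO-HFD and CON-LFD, -0.24 to 2.35 for Ccl21a, -0.76 to 1.85 for Ccl19, -1.45 to 1.17 for Cxcl13, -0.18 to 1.89 for Ccr7, -0.25 to 1.62 for Cxcr5, -0.32 to 3.51 for Glycam1, -0.23 to 2.46 for Cr2, -0.30 to 1.68 for Ltb and -0.26 to 1.87 for Lta. It gave -0.098 to 2.51 for Ccl19 and -0.046 to 2.08 for Lta (DIO-LFD minus DIO-HFD) and -0.32 to 0.40 for Madcam1 (DIO-VSG minus DIO-LFD). Separated genes of the 10 numbered 0 to 10 between DIO-VSG and DIO-HFD (2.81% to 13.4% of all genes), 0 to 10 between DIO-VSG and CON-LFD (3.04% to 19.9%), 0 to 5 between DIO-LFD and CON-LFD (2.21% to 9.18%) and 8 to 9 between DIO-VSG and DIO-LFD (13.5% to 16.1%). This alternative was chosen after seeing the data.

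With the lymphocyte mean as a covariate, the medians were 0.041 for DIO-VSG minus DIO-HFD and -0.022 for DIO-VSG minus CON-LFD. The direction was reversed for Ccl19 (-0.43), Cxcr5 (-0.11), Ltb (-0.14) and Lta (-0.11) in DIO-HFD minus CON-LFD. The direction was reversed for Madcam1 (-0.29), Glycam1 (-0.36), Cr2 (-0.14) and Lta (-0.0082) in DIO-VSG minus DIO-HFD. The direction was reversed for Ccl21a (-0.30), Ccl19 (-0.076), Cxcl13 (-0.57), Ccr7 (-0.036), Cxcr5 (-0.096), Glycam1 (-0.78), Cr2 (-0.63), Ltb (-0.099) and Lta (-0.21) in DIO-VSG minus DIO-LFD. The direction was reversed for Ccl19 (-0.17), Cxcl13 (-0.46), Cxcr5 (-0.043), Cr2 (-0.12), Ltb (-0.00071) and Lta (-0.11) in DIO-VSG minus CON-LFD. The direction was reversed for Ccl19 (-0.098) in DIO-LFD minus CON-LFD. With library weights, 5 genes were called between DIO-VSG and CON-LFD, and in DIO-HFD minus CON-LFD the direction was reversed for Cxcl13 (1.505), in DIO-LFD minus DIO-HFD the direction was reversed for Ccl21a (-0.709), Ccl19 (-0.31), Cxcl13 (-0.14), Ccr7 (-0.41), Cxcr5 (-0.51), Glycam1 (-0.17), Cr2 (-0.29), Ltb (-0.42) and Lta (-0.44) and in DIO-VSG minus DIO-LFD the direction was reversed for Madcam1 (0.36). In the weighted fit, DIO-HFD replicate 4 had a weight of 10.9 and DIO-HFD replicates 1 to 3 had 0.48, 0.46 and 0.22. A fit of the 8 libraries of DIO-VSG and DIO-LFD called 5.

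With a replicate block, 0 of 10 were called in any comparison, 6 reached an unadjusted p of 0.05 between DIO-VSG and CON-LFD (8 without it), where 9.19% of genes did (10.2% without it), and 1 gene was called between DIO-HFD and CON-LFD (8 without it). Same-numbered libraries had correlations of their deviations between -0.61 and 0.53 over 24 pairs, of which 9 exceeded 0.1. Of 16 libraries, 7 correlated best with a library of their own number. Whether same-numbered libraries share more than a number was not tested.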
